A study of Homo sapiens with 6 samples.

Results

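Aminoacyl-tRNA synthetases are the enzymes that join each amino acid to its own tRNA, and their genes were followed here after knockdown of TAZ in HFL-1, an established fibroblast line of human fetal lung. The members are the 36 rows of the count table whose symbol is on a fixed list of synthetases under their older names, 20 for cytosolic enzymes and 16 for mitochondrial ones, of 23355 gene entries in all. The rule used symbols only and no measured value, but the list was chosen with earlier results of these data known. All 36 passed edgeR's filter on low counts and were among the 14053 genes tested, with 796 to 9536 counts per library for the cytosolic members and 60 to 5418 for the mitochondrial ones. The labels name no other genetic change, and cultures received a non-targeting siRNA (siNTC) or 1 of the 2 siRNAs against TAZ (siTAZ #1, siTAZ #2) for 48 h before total RNA was isolated. Each of the 3 groups had 2 libraries from biological replicates, 6 in all, with 15648055 to 32078188 counts per library, as raw counts of Ion Proton reads per gene, the form in which the table was deposited. The comparisons ask which genes depend on TAZ, a transcriptional coactivator of the Hippo pathway, in a single lung fibroblast line with a transient knockdown.

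Cytosolic synthetases charge the tRNAs that cytosolic ribosomes read, and mitochondrial synthetases, encoded in the nucleus and imported, charge those for the proteins made from mitochondrial DNA. GARS and KARS encode both the cytosolic and the mitochondrial enzyme. FARSA and FARSB are the subunits of one enzyme, EPRS charges both glutamate and proline, and 8 of the cytosolic members (DARS, EPRS, IARS, KARS, LARS, MARS, QARS and RARS) sit together in the multisynthetase complex, held by the scaffold proteins AIMP1, AIMP2 and EEF1E1. Many cytosolic synthetase genes are known targets of ATF4, the transcription factor of the amino acid response, which acts with C/EBP proteins at a C/EBP-ATF response element (CARE) near gene starts.

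TAZ itself, listed as WWTR1 and located on chromosome 3 from 149235022 to 149454501 of GRCh37, was at 132 and 131 CPM with siNTC, 26.4 and 28.4 CPM with siTAZ #1 and 46.1 and 43.1 CPM with siTAZ #2. CPM stands for a gene's count relative to the library total after TMM scaling. All 4 siTAZ libraries lay far below both siNTC libraries, with log2 fold changes of -2.26 ± 0.10 (SE, FDR 0.000617) with siTAZ #1 and -1.56 ± 0.10 (SE, FDR 0.000681) with siTAZ #2 by edgeR's quasi-likelihood test. Replicate 2 of siTAZ #1 had nearly missing counts from RANGAP1 on chromosome 22 to the end of Y, where no member lies, but those genes raised the spread that edgeR assigned to all genes (common dispersion 0.0807 with them and 0.0164 without). The fibroblast markers were present, 9 of 9 with at least 10 CPM in some group, and moved in both directions. COL1A2, DCN and LUM fell with both siRNAs, COL1A1 with siTAZ #1, and COL3A1 and VIM with siTAZ #2, while PDGFRB rose with both (log2 fold changes 0.39 and 0.54), PDGFRA with siTAZ #1 (1.72, FDR 0.000843) and THY1 with siTAZ #2 (0.50). Their sum, most of it from COL1A1, COL1A2, COL3A1 and VIM, was 34878 to 34966 CPM with siNTC, 23174 to 24049 with siTAZ #1 and 27180 to 28939 with siTAZ #2. Of the 3 smooth muscle markers, ACTA2 rose with siTAZ #1 (0.59) and fell with siTAZ #2 (-0.80), DES rose with siTAZ #2 (0.99, FDR 0.0392) and MYH11 did not pass, and their sum was 189 to 202, 274 to 309.7 and 123 to 127 CPM. CDH1 of the epithelium, PECAM1 and CDH5 of the endothelium and PTPRC, CD14 and LYZ of leukocytes were at most 0.435 CPM in any group's mean, and EPCAM, KRT19 and VWF at most 2.37 CPM. The 5 epithelial markers, mostly KRT18, summed to 45.96 to 46.3 CPM with siNTC, 41.5 to 48.7 with siTAZ #1 and 59.2 to 64.9 with siTAZ #2. EPCAM and KRT18 were lower with siTAZ #1 than with siTAZ #2 (-2.03, FDR 0.0292, and -0.51, FDR 0.04985). KRT19 went the other way (1.62, FDR 0.0441) and fell with siTAZ #2 against siNTC (-1.59, FDR 0.0482). The 4 leukocyte markers, nearly all CD68, summed to 74.1 to 75.3, 69.1 to 75.7 and 38.2 to 48.98 CPM, and CD68 fell with siTAZ #2 (-0.79, FDR 0.0118). The part of these markers in the results on the members was not tested, and in bulk RNA fewer cells of a kind and less RNA per cell cannot be told apart.

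Promoter sequences are shown for GARS and IARS, which hold a CARE core, because many cytosolic synthetase genes are known ATF4 targets. RefSeq promoters of GRCh38.p14 were matched for 30 of the 36 members, 16 cytosolic and 14 mitochondrial (there was no entry for DARS, LARS, VARS, YARS, AARS2 and VARS2), and the 250 bases before each start were searched on both strands for the core TGATGNAA. It was found in 4 of the 30, among them GARS and IARS of the cytosolic members and YARS2 of the mitochondrial ones, against 3.14% of 35116 promoters of the same length. In GARS and IARS it reads on the opposite strand, so that it appears below as TTNCATCA, in capitals, 25 bases before the start in GARS and 5 in IARS. The windows are GARS chr7:30594628-30594877 on the plus strand and IARS chr9:92293698-92293947 on the minus strand, each printed 5′ to 3′ along its gene.
GARS: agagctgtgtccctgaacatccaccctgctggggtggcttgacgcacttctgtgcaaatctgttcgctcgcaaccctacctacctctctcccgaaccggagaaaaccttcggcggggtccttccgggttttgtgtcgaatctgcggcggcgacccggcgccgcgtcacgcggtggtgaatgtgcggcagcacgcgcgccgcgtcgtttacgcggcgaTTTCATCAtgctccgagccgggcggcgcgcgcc
IARS: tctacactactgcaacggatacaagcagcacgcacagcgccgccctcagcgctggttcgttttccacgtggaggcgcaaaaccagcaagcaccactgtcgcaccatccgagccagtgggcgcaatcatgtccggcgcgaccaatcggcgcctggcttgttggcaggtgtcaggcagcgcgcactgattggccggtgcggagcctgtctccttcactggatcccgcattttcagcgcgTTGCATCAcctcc
GARS fell with both siRNAs and IARS with siTAZ #1, as the values below show. The core GGAATG of TEAD factors, through which TAZ reaches DNA, occurred in the same window of 3 of the 30 members, against 11.9% of all promoters searched. These were CARS, FARS2 and WARS2. The CARS window lies at chr11:3040985-3041234 of GRCh38.p14, while on GRCh37, another build, this minus-strand gene is annotated to start at 3078843. Whether the window is at the main start of CARS was not tested, and other starts were not searched. A match is a description of the letters and not of binding.

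In siNTC cells, the levels per length of the canonical transcript were higher for cytosolic than for mitochondrial members, with medians of 85.2 and 12.9 CPM per kb. GARS, for glycine, was highest at 217 ± 16.8 CPM per kb (SD, n = 2 libraries), followed by SARS, for serine, at 199 ± 5.57 CPM per kb. YARS, WARS, MARS and QARS came next, from 140.1 to 123 CPM per kb. MARS and QARS (125 ± 4.69 and 123 ± 1.02 CPM per kb) differed by less than the SD of MARS. FARSB, at 11.5 ± 0.148 CPM per kb, was the lowest cytosolic member. IARS2, for mitochondrial isoleucine, had the highest mean of the mitochondrial members at 35.5 ± 0.57 CPM per kb and differed from CARS2 (33.2 ± 6.0 CPM per kb) by less than the SD of CARS2. MARS2, for mitochondrial methionine, was the lowest of all 36 at 1.99 ± 0.0359 CPM per kb.

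**Figure D1:**
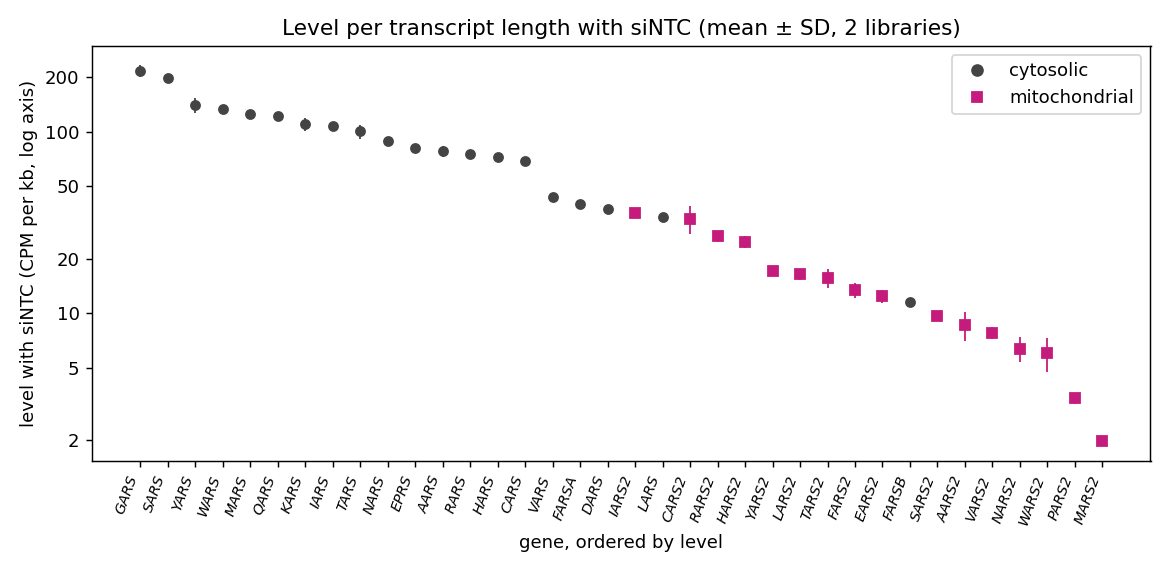
Levels of the 36 synthetase genes with siNTC, in CPM per kb of the canonical transcript on a log axis, ordered from high to low (points are means and bars SDs of 2 libraries). Cytosolic genes (circles) run from 217 for GARS to 11.5 for FARSB, and mitochondrial genes (squares) from 35.5 for IARS2 to 1.99 for MARS2.

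With siTAZ #2 the cytosolic synthetases fell broadly. Of the 20 cytosolic members, 13 were lower than with siNTC and 1 was higher, and the median of their log2 fold changes was -0.64. With siTAZ #1, 5 were lower and 15 did not pass, with a median of -0.28. Log2 fold changes were below 0 for 18 of the 20 with each siRNA. Among all 14053 genes tested, 6852 were below 0 with siTAZ #1 and 6897 with siTAZ #2. The cytosolic members summed to 5144 and 5328 CPM with siNTC, 4073 and 3901 CPM with siTAZ #1 and 3289 and 3362 CPM with siTAZ #2, so the mean sum was 76.2% and 63.5% of siNTC. Of the 16 mitochondrial members, 5 were lower and 1 higher with siTAZ #1 (median -0.30), and 4 were lower and 1 higher with siTAZ #2 (median -0.27). With each siRNA, 12 of these 16 had log2 fold changes below 0. Their summed level was 87.6% of siNTC with siTAZ #1 and 77.9% with siTAZ #2.
Over all 36 members, 10 (27.8%) were called lower with siTAZ #1, where 9.78% of all genes tested were, and 1 higher, where 10.8% were. With siTAZ #2, 17 members (47.2%) were lower and 2 higher, against 14.4% and 14.1% of all genes. The median over all genes tested was 0.02 with siTAZ #1 and 0.01 with siTAZ #2. Both comparisons use the same siNTC libraries. For siTAZ #1 the number of calls rested on both siNTC libraries, since without either of them only GARS and LARS2 were still called lower (2 members, 5.56%, where 2.06% of all genes were without replicate 1 and 1.89% without replicate 2), and the call of MARS2 was lost. By edgeR's exact test on the 4 libraries, 2 members were lower with siTAZ #1 as well (5.56%), where 3.59% of all genes were. With the genes of the near-missing region left out of all 6 libraries, 15 members (41.7%) were lower with siTAZ #1, where 14.8% of all genes were. With siTAZ #2, 20 (55.6%) were lower, where 19.2% of all genes were. The shares higher were 8.33% of members and 15.7% of all genes with siTAZ #1, and 5.56% and 19.5% with siTAZ #2.

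**Figure D2:**
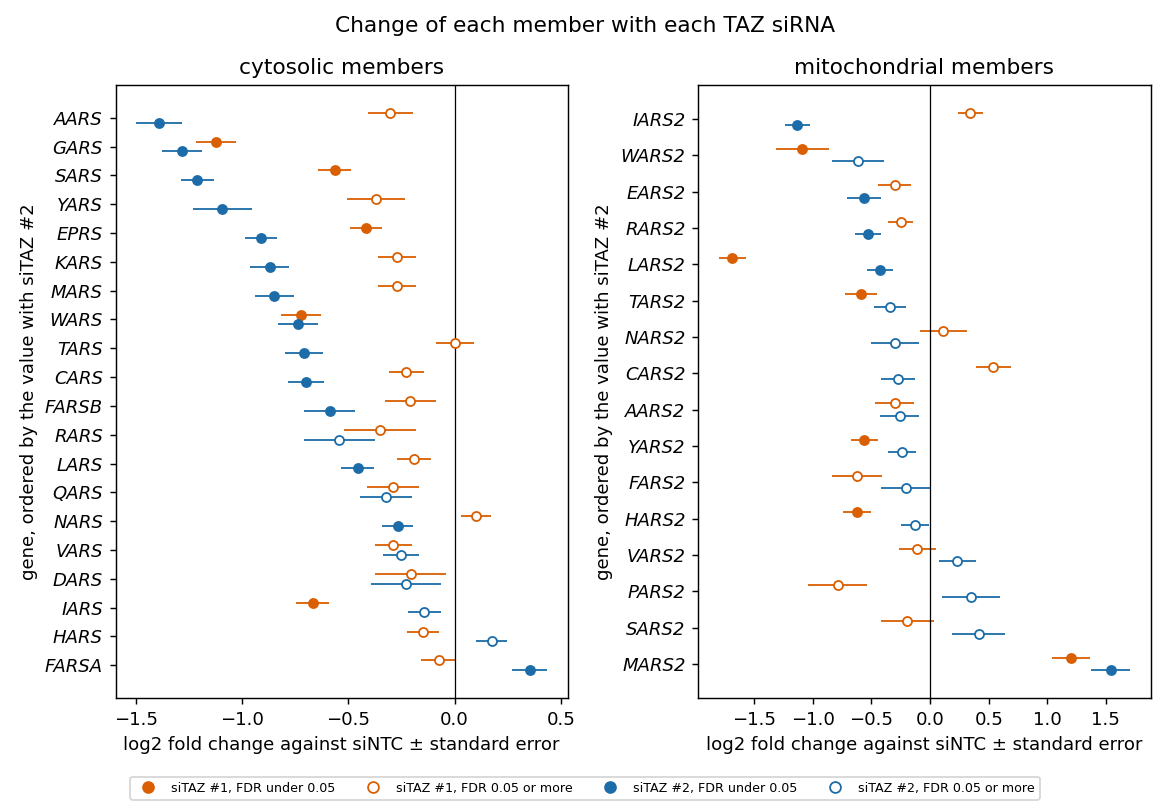
Log2 fold changes against siNTC with their standard errors, for cytosolic members (left) and mitochondrial members (right), with siTAZ #1 in orange and siTAZ #2 in blue and filled points for an FDR under 0.05. In the cytosolic panel 13 blue and 5 orange points left of 0 are filled, and in the mitochondrial panel IARS2 lies at 0.35 with siTAZ #1 and -1.13 with siTAZ #2, and LARS2 at -1.69 and -0.43.

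The members that fell with both siRNAs were GARS, SARS, EPRS and WARS among the cytosolic genes and LARS2 among the mitochondrial ones. GARS, on chromosome 7 from 30620149 to 30673649 of GRCh37, was at 501 and 558.5 CPM with siNTC, 255 and 231 CPM with siTAZ #1 and 219.9 and 214.5 CPM with siTAZ #2. All 4 siTAZ libraries lay far below both siNTC libraries, with log2 fold changes of -1.12 ± 0.09 (SE, FDR 0.00168) with siTAZ #1 and -1.29 ± 0.09 (SE, FDR 0.000855) with siTAZ #2. The study listed GARS among the genes it selected from these same libraries, so its fall is not independent of that choice.
SARS, which charges serine, was at 388 and 373 CPM with siNTC, 264 and 250.5 CPM with siTAZ #1 and 160.1 and 168.5 CPM with siTAZ #2. The groups did not overlap and siTAZ #2 lay lowest, with log2 fold changes of -0.56 (FDR 0.00671) with siTAZ #1 and -1.21 (FDR 0.000684) with siTAZ #2. EPRS was at 388 and 403 CPM with siNTC, 303 and 289.6 CPM with siTAZ #1 and 214 and 207 CPM with siTAZ #2. Its order was the same, at log2 fold changes of -0.42 (FDR 0.0144) and -0.91 (FDR 0.0011).
WARS, for tryptophan, whose gene is also induced by interferon, was at 351 and 351 CPM with siNTC, 219 and 206 CPM with siTAZ #1 and 195.5 and 226 CPM with siTAZ #2. Both siTAZ groups lay well below siNTC and overlapped each other, at -0.72 (FDR 0.0061) and -0.74 (FDR 0.004) on the log2 scale, and the difference between them was 0.01 with a 95% interval of -0.22 to 0.25, not adjusted for the number of genes. For GARS that difference was 0.16 (-0.06 to 0.39).

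A larger group of 9 cytosolic members was called lower with siTAZ #2 and not with siTAZ #1. Their log2 fold changes with siTAZ #1 ran from -0.37 for YARS to 0.10 for NARS. Of these, AARS, CARS, KARS, MARS and YARS, at -0.37 to -0.23, had 95% intervals below 0, not adjusted for the number of genes. By DESeq2, and by edgeR without the near-missing region, AARS and YARS were called lower with siTAZ #1. The direct test separated the siRNAs for 7 of the 9, and missed the threshold for LARS (0.27, FDR 0.0521) and FARSB (0.38, FDR 0.064). AARS, on chromosome 16 from 70285886 to 70323610 of GRCh37, was at 254 and 282 CPM with siNTC, 228 and 206 CPM with siTAZ #1 and 95.96 and 108 CPM with siTAZ #2. The siTAZ #2 libraries lay far below all others (log2 fold change -1.39 ± 0.11 SE, FDR 0.000936), while siTAZ #1 gave -0.30 (FDR 0.0966). The direct difference between the siRNAs was 1.09 (FDR 0.00182).
YARS, for tyrosine, was at 320.5 and 364 CPM with siNTC, 289 and 241 CPM with siTAZ #1 and 146 and 174 CPM with siTAZ #2. KARS, for lysine, was at 206 and 231 CPM with siNTC, 175 and 188 CPM with siTAZ #1 and 119.6 and 119.5 CPM with siTAZ #2. MARS, for methionine, was at 358 and 339.9 CPM with siNTC, 303 and 275 CPM with siTAZ #1 and 186 and 202 CPM with siTAZ #2. In these 3 genes both siTAZ #2 libraries lay below all 4 other libraries, with log2 fold changes against siNTC of -1.09 (FDR 0.00369), -0.87 (FDR 0.00209) and -0.85 (FDR 0.00226).
TARS, for threonine, was at 251 and 286 CPM with siNTC, 269 and 269 CPM with siTAZ #1 and 165 and 163 CPM with siTAZ #2. Its siTAZ #1 libraries lay between the siNTC libraries (log2 fold change 0.00183, with both signs among the alternatives), and with siTAZ #2 it fell by 0.71 on the log2 scale (FDR 0.00351). CARS, for cysteine, was at 186 and 193 CPM with siNTC, 162 and 162 CPM with siTAZ #1 and 111 and 123 CPM with siTAZ #2. LARS, for leucine, was at 157 and 167 CPM with siNTC, 138.5 and 145 CPM with siTAZ #1 and 119 and 117 CPM with siTAZ #2. Both fell with siTAZ #2, with log2 fold changes of -0.70 (FDR 0.00308) and -0.46 (FDR 0.00979), and without any 1 of the siNTC or siTAZ #2 libraries LARS missed the threshold.
NARS, for asparagine, had the smallest of the falls with siTAZ #2, -0.27 on the log2 scale (FDR 0.0382), with 246 CPM with siNTC and 204 CPM with siTAZ #2 in the mean of 2 libraries. This call held in 12 of the 20 alternatives tried.

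The subunits of phenylalanyl-tRNA synthetase moved apart with siTAZ #2. FARSB, the beta subunit, was at 76.96 and 78.4 CPM with siNTC, 62.8 and 71.6 CPM with siTAZ #1 and 55.3 and 48.1 CPM with siTAZ #2 and fell by 0.59 on the log2 scale (FDR 0.0174), a call lost without either siNTC library or without replicate 2 of siTAZ #2. FARSA, the alpha subunit, was at 72.4 ± 1.29 CPM with siNTC and 92.5 ± 1.25 CPM with siTAZ #2 (SD, n = 2) and rose by 0.35 on the log2 scale (FDR 0.027). An offset for GC content took the change of FARSA to 0.12 (FDR 0.288, the highest among all alternatives). The call of FARSA held in 13 of the 20 alternatives. It was also lost without the filter on low counts, with the replicate block and without any 1 of the siNTC or siTAZ #2 libraries.

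**Figure D3:**
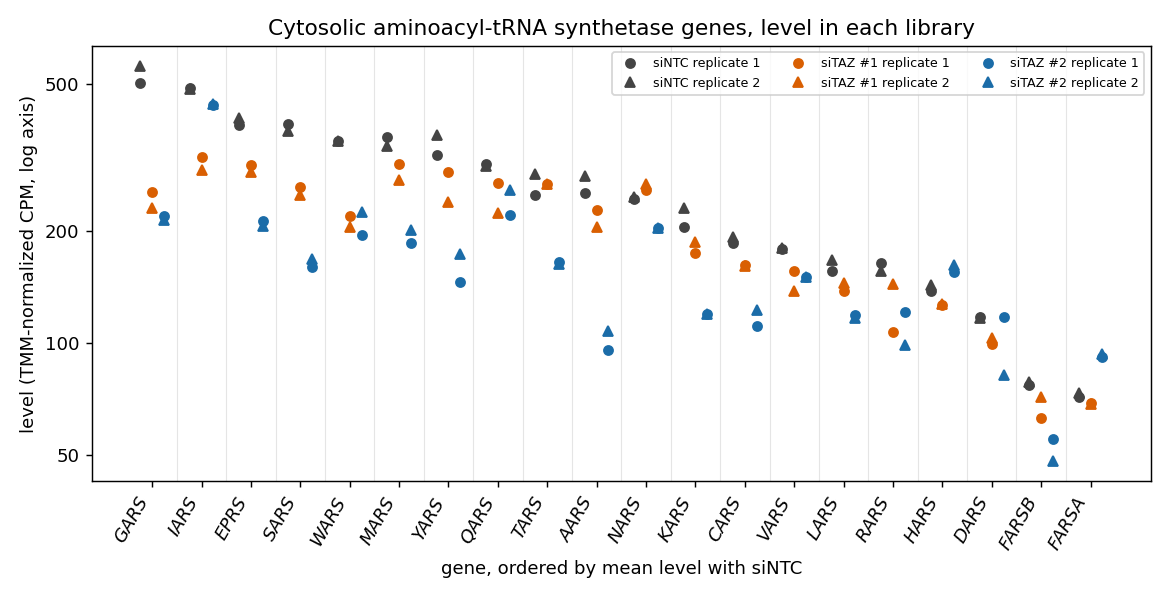
Levels of the 20 cytosolic members in each of the 6 libraries, in CPM after TMM scaling on a log axis, ordered by the siNTC mean (grey siNTC, orange siTAZ #1, blue siTAZ #2, circles replicate 1 and triangles replicate 2). For GARS all 4 siTAZ libraries lie well below the siNTC libraries, for AARS only the siTAZ #2 libraries do, and for IARS only the siTAZ #1 libraries.

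IARS, for isoleucine in the cytosol, was lower with siTAZ #1 only by the threshold, and the direct test separated the siRNAs. Its libraries were at 488 and 482 CPM with siNTC, 318 and 292.5 CPM with siTAZ #1 and 439 and 440.0 CPM with siTAZ #2. Its log2 fold changes were -0.67 ± 0.08 (SE, FDR 0.00421) with siTAZ #1 and -0.14 with siTAZ #2 (FDR 0.223), and the difference was -0.53 (FDR 0.00575). IARS2, its mitochondrial counterpart on chromosome 1 from 220267474 to 220321383 of GRCh37, went the opposite way. It was at 124 and 127 CPM with siNTC, 153 and 166 CPM with siTAZ #1 and 61.9 and 52.7 CPM with siTAZ #2. The siTAZ #2 libraries lay far below all others (log2 fold change -1.13 ± 0.11 SE, FDR 0.00162), while both siTAZ #1 libraries lay above siNTC (0.35, FDR 0.0689). The difference between the siRNAs, 1.48 (FDR 0.000942), was the largest among the members and kept its call in all 20 alternatives.

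LARS2, for mitochondrial leucine, had the largest log2 fold change of any member against siNTC. It lies on chromosome 3 from 45430053 to 45596218 of GRCh37 and was at 74.8 and 82.5 CPM with siNTC, 25.5 and 23.3 CPM with siTAZ #1 and 58.7 and 58.3 CPM with siTAZ #2. The siTAZ #1 libraries lay lowest and the groups did not overlap (log2 fold change -1.69 ± 0.12 SE, FDR 0.00102), and siTAZ #2 gave a smaller fall of 0.43 on the log2 scale (FDR 0.0372), a call that held in 12 of 20 alternatives. The difference was -1.26 (FDR 0.00151) and its call held in all 20.
MARS2 was the only member that rose with both siRNAs. Its level was low, at 6.09 and 5.93 CPM with siNTC, 14 and 13.6 CPM with siTAZ #1 and 17.7 and 17.3 CPM with siTAZ #2. All 4 siTAZ libraries were more than 2-fold above both siNTC libraries, with log2 fold changes of 1.20 ± 0.16 (SE, FDR 0.00655) with siTAZ #1 and 1.54 ± 0.16 (SE, FDR 0.00226) with siTAZ #2. The siTAZ #1 call was lost when either siNTC library was left out, and its FDRs over the alternatives reached 0.0638. The difference between the siRNAs was -0.34, with a 95% interval of -0.73 to 0.05.
WARS2, for mitochondrial tryptophan, was at 14.3 and 19.3 CPM with siNTC, 8.26 and 7.58 CPM with siTAZ #1 and 12.1 and 9.84 CPM with siTAZ #2 and fell with siTAZ #1 (-1.09, FDR 0.0239). YARS2, for mitochondrial tyrosine, was at 37.5 and 34.8 CPM with siNTC, 25.2 and 23.9 CPM with siTAZ #1 and 30.9 and 30.4 CPM with siTAZ #2 and fell with siTAZ #1 as well (-0.56, FDR 0.0238). RARS2, for mitochondrial arginine, was at 56.9 and 62.5 CPM with siNTC, 50.9 and 49.4 CPM with siTAZ #1 and 41.5 and 41.2 CPM with siTAZ #2 and fell with siTAZ #2 (-0.53, FDR 0.0174).
TARS2 was lower with siTAZ #1 (-0.59, FDR 0.0327) and EARS2 with siTAZ #2 (-0.56, FDR 0.0348). EARS2 makes the misacylated glutamyl-tRNA that the mitochondrial amidotransferase turns into glutaminyl-tRNA. The calls of WARS2, YARS2 and TARS2 were lost without either siNTC library, and those of RARS2 and EARS2 without any 1 of the siNTC or siTAZ #2 libraries.

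**Figure D4:**
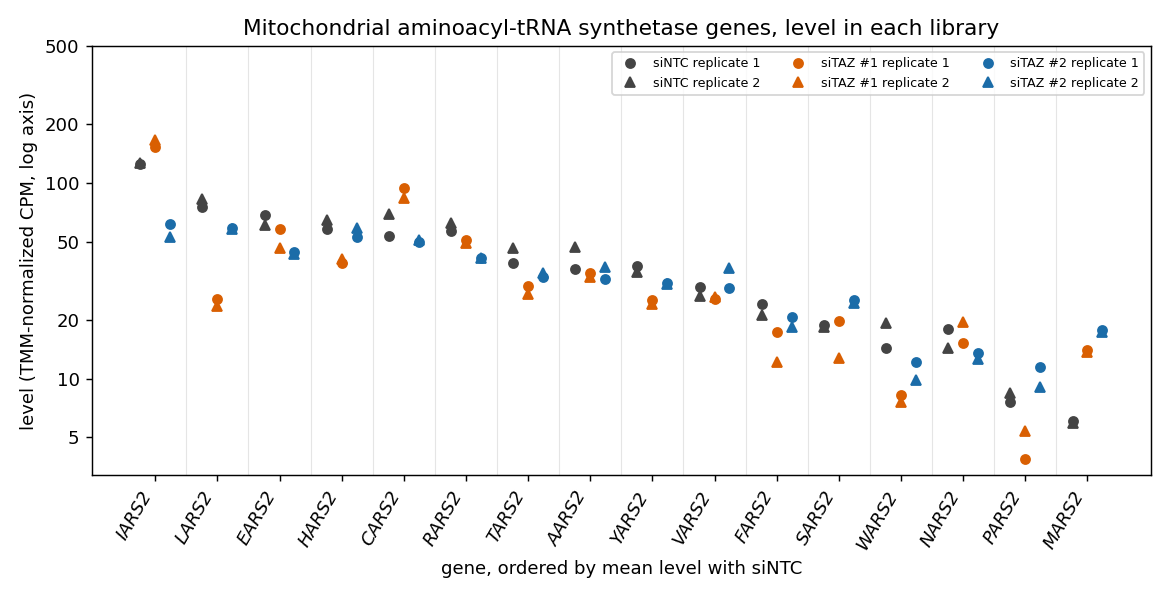
Levels of the 16 mitochondrial members in each of the 6 libraries, in CPM after TMM scaling on a log axis, ordered by the siNTC mean (grey siNTC, orange siTAZ #1, blue siTAZ #2, circles replicate 1 and triangles replicate 2). IARS2 is low only with siTAZ #2, LARS2 is lowest with siTAZ #1, and MARS2 is higher in all 4 siTAZ libraries.

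HARS and HARS2, for cytosolic and mitochondrial histidine, lie head to head on chromosome 5. HARS2 was at 58.1 and 64.2 CPM with siNTC, 38.9 and 40.6 CPM with siTAZ #1 and 52.9 and 58.9 CPM with siTAZ #2 and fell with siTAZ #1 (-0.62, FDR 0.018). HARS passed in neither comparison with siNTC (-0.15, FDR 0.214, and 0.17, FDR 0.137). Both were lower with siTAZ #1 than with siTAZ #2 in the direct test, by -0.32 (FDR 0.0246) and -0.49 (FDR 0.0277). The annotations of HARS (140052620 to 140071122, minus strand) and HARS2 (140071015 to 140078890, plus strand) overlap by 108 bases on GRCh37, and the strand setting of the counting is not given in the sources used here, so reads there cannot be assigned with certainty. In RefSeq on GRCh38.p14 the starts leave 84 bases between them, shown on the plus strand at chr5:140691371-140691454 since it lies between the starts of both genes.
HARS-HARS2: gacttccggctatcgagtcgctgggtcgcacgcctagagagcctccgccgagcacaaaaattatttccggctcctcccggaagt

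The members that passed in neither comparison with siNTC were, besides HARS, the cytosolic genes DARS, QARS, RARS and VARS and the mitochondrial genes AARS2, CARS2, FARS2, NARS2, PARS2, SARS2 and VARS2. The 4 cytosolic genes had log2 fold changes of -0.35 to -0.21 with siTAZ #1 and -0.54 to -0.23 with siTAZ #2. Of these RARS, for arginine, was nearest the threshold with siTAZ #2 (FDR 0.0593), and its libraries stood apart within a group, at 107 and 144 CPM with siTAZ #1. DARS, for aspartate, had its siTAZ #2 libraries at 117 and 82.3 CPM, on both sides of the siTAZ #1 libraries. CARS2 had 0.54 (FDR 0.0523) with siTAZ #1 and -0.27 (FDR 0.218) with siTAZ #2. PARS2, at 3.87 to 11.4 CPM over the 6 libraries, had -0.79 (FDR 0.0789) and 0.35 (FDR 0.341).

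The siRNAs were then compared directly. Among all genes tested 13.4% were lower and 15.2% higher with siTAZ #1 than with siTAZ #2, and among the 36 members 6 were lower and 11 higher. The median difference was -0.01 over all genes tested and 0.10 over the members. Of the 20 cytosolic members 9 were higher with siTAZ #1 and 3 lower, with a median log2 difference of 0.32, and of the 16 mitochondrial members 2 were higher and 3 lower, with a median of -0.33. Besides AARS and IARS2, those higher with siTAZ #1 were YARS, TARS, SARS, KARS, MARS, EPRS, CARS and NARS, by 0.72 to 0.37, and CARS2, by 0.81 (FDR 0.0114). Those lower were LARS2, PARS2 (-1.14, FDR 0.0214), IARS, HARS2, FARSA (-0.43, FDR 0.014) and HARS. Of the 17 calls, those of AARS, IARS2 and LARS2 held in every one of the 20 alternatives. By edgeR's exact test on the 4 libraries, 2 members were higher and 1 lower (5.56% and 2.78%), where 5.69% and 5.04% of all genes were. VARS, for valine, and QARS, for glutamine, had differences of -0.04 (-0.25 to 0.18) and 0.04 (-0.26 to 0.34), with 95% intervals as above. The residual level of WWTR1 itself was lower with siTAZ #1 (log2 difference -0.70, FDR 0.00499).

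Within the cytosolic members, those listed as ATF4 targets from textbook knowledge (AARS, CARS, EPRS, GARS, IARS, LARS, MARS, NARS, SARS, TARS, WARS and YARS) were set beside the others. The list was drawn up with earlier results of these data known, so the contrast is not independent of them. A part of ATF4 in it was not tested. Of the 12 listed, 11 (91.7%) were lower with siTAZ #2, IARS being the exception, and 5 (41.7%) with siTAZ #1, with medians of -0.79 and -0.34. Among all genes tested, 14.4% were lower with siTAZ #2 and 9.78% with siTAZ #1. Of the other 8 cytosolic members, 2 (25%) were lower (FARSB and KARS) and 1 (12.5%) higher (FARSA) with siTAZ #2, with a median of -0.29. With siTAZ #1 these 8 had log2 fold changes of -0.35 to -0.08 and FDRs of 0.0672 or more. In the direct comparison 8 of the 12 (66.7%) were higher with siTAZ #1 and 1 (8.33%) was lower, against 15.2% and 13.4% of all genes. Of the 8 members of the multisynthetase complex, 4 (50%) were lower with siTAZ #2 (EPRS, KARS, LARS and MARS) and 2 (25%) with siTAZ #1 (EPRS and IARS). By the structural class of the enzyme, 5 of 9 cytosolic class I (55.6%) and 7 of 10 class II members (70%) were lower with siTAZ #2, and EPRS holds a domain of each class.

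ATF4 itself was at 520.2 and 533.5 CPM with siNTC, 594.5 and 548.5 CPM with siTAZ #1 and 233 and 239 CPM with siTAZ #2. It fell with siTAZ #2 (-1.16, FDR 0.00074) and was not called with siTAZ #1 (0.12, FDR 0.337), and the difference was 1.28 (FDR 0.000714). Of 18 genes of the amino acid response, 14 (77.8%) were lower with siTAZ #2, where 14.4% of all genes tested were, with a median of -0.98. These 18 genes were also listed with earlier results of these data known, so their shares are not independent of them. With siTAZ #1, 7 (38.9%) were lower and 1 (5.56%) higher, against 9.78% and 10.8% of all genes, with a median of -0.54. ASNS, asparagine synthetase, fell with both, at log2 fold changes of -1.28 with siTAZ #1 and -2.22 with siTAZ #2. PCK2, the mitochondrial phosphoenolpyruvate carboxykinase, fell at -2.19 and -1.87, and DDIT4, a stress-induced inhibitor of mTORC1, at -1.22 and -1.49. ASNS, PCK2 and DDIT4 were, like GARS, among the genes the study selected from these same libraries. Their falls are not independent of that choice. PHGDH and PSAT1, enzymes of serine synthesis, and TRIB3, a pseudokinase that binds ATF4, also fell with both. The gene that rose with siTAZ #1 was CEBPB (1.46, FDR 0.00142), one of the C/EBP factors, named after its value was seen.

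Among 19 genes whose products work beside the synthetases, likewise listed with earlier results known, 4 (21.1%) were lower with siTAZ #1 and 5 (26.3%) with siTAZ #2. Of all genes tested, 9.78% and 14.4% were. The median log2 fold change of the 19 genes was -0.23 in both comparisons. AIMP2, a scaffold of the multisynthetase complex, was at 49.96 and 45.2 CPM with siNTC, 27.6 and 22.5 CPM with siTAZ #1 and 23.4 and 24.5 CPM with siTAZ #2, and its log2 fold changes were -0.93 (FDR 0.0101) and -0.99 (FDR 0.00604). The other scaffold genes did not pass, AIMP1 at -0.08 and -0.18 and EEF1E1, at 4.39 CPM in the siNTC mean, at 1.10 and 0.85 (FDR 0.183 and 0.262). PET112, the B subunit of the mitochondrial amidotransferase that works after EARS2, fell with both (-1.18, FDR 0.0107, and -0.71, FDR 0.0394). TARSL2, a cytosolic paralog of TARS, fell with both as well (-0.74 and -0.77). The remaining calls, named after their values were seen, were SEPSECS, the selenocysteine synthase, lower with siTAZ #1 (-1.03), and XPOT, which exports tRNA from the nucleus, and EEF1A1, which carries charged tRNA to the ribosome, lower with siTAZ #2 (-0.94 and -0.67).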

How the data were processed

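The deposited values are raw read counts of 6 libraries, for which the authors mapped the reads of an Ion Proton to hg19 (TMAP) and tallied them by gene (HTSeq 0.6.1, version from the submitters' processing notes), with no scaling. The strand setting and counting mode are not given in the sources used here. Of 23368 entries, 13 carrying a date in place of a symbol (0.0458% to 0.0506% of a library's counts) were left out. The main test was edgeR's quasi-likelihood test (edgeR 4.0.16, R 4.3.3), with all 6 libraries in one model, after TMM scaling and the filter filterByExpr by group. FDRs are Benjamini-Hochberg values over all 14053 genes that passed, with a threshold of 0.05. Standard errors were taken as the size of a log2 fold change over the root of F. The 95% intervals came from these and the total degrees of freedom of the test, residual plus prior. With 2 libraries per group, spread is shared across groups and genes, and no exact permutation test can reach 0.05.

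Positions and canonical transcript lengths came from GENCODE for GRCh37, the build of hg19, and promoters from RefSeq for GRCh38.p14, of which 1 matched sequence is not reported here. Replicates of each group differed beyond sampling noise (mean chi-square per gene 5.38, 92.2 and 11.7 for siNTC, siTAZ #1 and siTAZ #2). The members and all lists were chosen with earlier results of these data known. All 36 members are named, and values per library are given for the 20 with the lowest p in either comparison with siNTC among the 27 called in at least 1 comparison. Genes of the other lists are named when called with both siRNAs, at most 6 per list, with ATF4 and the scaffold genes added. Alternatives were DESeq2 1.42.0, edgeR's exact test, RLE, upper-quartile and library-total scaling, other filters on low counts, a fit of 4 libraries, a robust spread, offsets for GC content or length (known for 95.5% of the genes tested), leaving out the near-missing region, a replicate block, and leaving out each library. The crossed replicate block was added after seeing the data. The test was tested on simulated data.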

Additional observations from a re-analysis of the deposited data

Results flagged for a closer look

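The effects of the siRNAs on 17 members differed by the direct test of siTAZ #1 against siTAZ #2 (edgeR's quasi-likelihood test, FDR under 0.05), which does not use the siNTC libraries' levels. Given as log2 level with siTAZ #1 minus siTAZ #2, the cytosolic members AARS (1.09), YARS (0.72), TARS (0.71), SARS (0.65), KARS (0.60), MARS (0.58), EPRS (0.49), CARS (0.47) and NARS (0.37) were higher with siTAZ #1. IARS (-0.53), FARSA (-0.43) and HARS (-0.32) were lower. Among the mitochondrial members IARS2 (1.48) and CARS2 (0.81) were higher and LARS2 (-1.26), PARS2 (-1.14) and HARS2 (-0.49) were lower. Each group holds 2 libraries, and differences between the siRNAs other than their effect on TAZ cannot be told apart from it here. Cytosolic and mitochondrial members for the same amino acid went opposite ways for isoleucine, with IARS lower and IARS2 higher with siTAZ #1 than with siTAZ #2. For proline they did so as well, with EPRS, which also charges glutamate, higher and PARS2 lower with siTAZ #1.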

How the results depend on the processing

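All calls on members kept their direction in the 20 alternatives. Of these calls, 2 of 11 with siTAZ #1, 12 of 19 with siTAZ #2 and 3 of 17 between the siRNAs stayed past the threshold in every one. Counts moved by over 1.5 times as follows, with the cause not tested. Members lower with siTAZ #1 (10) were 2 by edgeR's exact test and 2 to 17 without 1 library (2 without either siNTC library, 17 without replicate 1 of siTAZ #1), while all genes lower went from 9.78% to 3.59% by the exact test and 1.89% to 17.8% without 1 library. Of these members, the cytosolic ones (5) were 9 by DESeq2, 8 with a GC offset, 8 without the near-missing region, 1 by the exact test and 1 to 10 without 1 library, and the mitochondrial ones (5) were 3 in a fit of 4 libraries, 2 with the replicate block, 1 by the exact test and 1 to 7 without 1 library. Members higher (1) were 2 with library totals, a length offset or a minimum mean count of 50, 3 by DESeq2, with a robust spread, with a GC offset and without the near-missing region, and 0 to 3 without 1 library. Members lower with siTAZ #2 (17) were 11 to 21 without 1 library (11 without either siNTC library or replicate 2 of siTAZ #2), against 4.88% to 20.6% of all genes, and the mitochondrial ones (4) were 1 to 5. Members higher (2) were 1 without a filter, 1 with the replicate block and 1 to 2 without 1 library. Between the siRNAs, members lower with siTAZ #1 (6) were 3 in a fit of 4 libraries, 1 by the exact test and 2 to 8 without 1 library, and members higher (11) were 2 by the exact test and 7 to 15 without 1 library, against 5.31% to 19.3% of all genes lower and 7.01% to 19.3% higher.

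The replicate numbers showed no pairing of siNTC with either siRNA, and between the siRNAs they ran weakly against each other. Shared handling of libraries across groups was not tested. The differences between replicates 1 and 2 correlated across genes at -0.00619 between siNTC and siTAZ #1, 0.0101 between siNTC and siTAZ #2 and -0.183 between siTAZ #1 and siTAZ #2. With the replicate block, 7 members were lower with siTAZ #1, 15 lower with siTAZ #2, and 5 lower and 11 higher between the siRNAs, and with the numbers of siTAZ #2 crossed, added after seeing the data, 9, 17, 6 and 12.

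Values that changed sign were uncalled in the main analysis. TARS with siTAZ #1 (0.0018) was -0.0029 with RLE scaling and by DESeq2, -0.028 with upper-quartile scaling, -0.021 without a filter, -0.012 in a fit of 4 libraries and by the exact test, -0.017 without the near-missing region, -0.040 with a GC offset, -0.014 with a length offset and -0.099 to 0.089 without 1 library. Without 1 library, NARS2 ranged from -0.078 to 0.28 and SARS2 from -0.54 to 0.093 with siTAZ #1. Between the siRNAs, DARS was -0.017 and QARS -0.0023 with upper-quartile scaling, WARS was -0.024 with it and -0.0050 without the near-missing region, and with a GC offset DARS was -0.12, WARS -0.032, VARS 0.20 and AARS2 0.092. Without 1 library these differences ranged from -0.20 to 0.30 for DARS, -0.098 to 0.17 for QARS, -0.085 to 0.13 for WARS, -0.12 to 0.053 for VARS, -0.14 to 0.070 for AARS2 and -0.037 to 0.39 for RARS. Over the 6 libraries, PARS2 and WARS2 rest on the fewest counts.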
